A study of Rattus norvegicus with 10 samples.

Results

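Faah, Gpbp1l1 and LOC108348080 are 3 gene models of rat chromosome 5, chosen by their measured difference between genotypes, since all 3 stood higher in lung of Cmg2-KO rats than of wild-type (WT) rats. They were taken by name and position (a window of 4 Mb on chromosome 5) from a deposited table of 1319 genes, in which every gene had an unadjusted p-value under 0.05 for that contrast. All 3 passed the filter on low values. RNA sequencing was done on flash-frozen lung taken at 8 weeks of age from Sprague Dawley rats, which are outbred, with 5 WT libraries and 5 libraries of the genotype labelled Cmg2-KO, in which the matrix-binding anthrax toxin receptor CMG2 is lacking. How the Cmg2 allele was made is not given in the sources used here, and the targeted transcript was not analysed here, so it gives no check of the labels. Nothing says that the libraries of a genotype came from separate animals, so spread between them may be technical in part. The question put to these genes was whether they vary together from library to library inside a genotype, as genes carried on 1 segregating stretch of chromosome could.

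Faah encodes fatty acid amide hydrolase, a membrane enzyme that breaks down anandamide and related fatty acid amides and so ends their signalling at cannabinoid receptors. Gpbp1l1 encodes a nuclear protein related to vasculin (Gpbp1), which binds GC-rich promoters. LOC108348080 is described in the table as probable rRNA-processing protein EBP2, a nucleolar factor of large ribosomal subunit assembly whose named gene is Ebna1bp2. In an outbred strain, neighbouring genes are inherited together as a haplotype. A variant that acts on a gene in cis follows the haplotype, which need not travel with the engineered allele.

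The models lie far apart in the table's coordinates, whose genome build is not given in the sources used here. Faah (ENSRNOG00000011019) spans 134331929 to 134348995 on the minus strand. Gpbp1l1 (ENSRNOG00000037595) spans 135412256 to 135439577 on the plus strand, 1.06 Mb further on. LOC108348080 (ENSRNOG00000045760) spans 137670123 to 137674802 on the plus strand, another 2.23 Mb further on. RefSeq's annotation of the GRCr8 assembly matched Faah and Gpbp1l1 by symbol, and LOC108348080 had no entry. In that assembly 12 protein-coding genes lie between Faah and Gpbp1l1, of which 2 (Tspan1 and Pik3r3) were in the table. A further 51 lie between Gpbp1l1 and Ebna1bp2, of which 4 were in the table.

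GRCr8 holds a single Faah gene, and its identifier, 100911581, is the one the deposited table gives to a different row, LOC100911581, described as fatty-acid amide hydrolase 1-like. In the table the Faah row thus has that gene's symbol and the LOC100911581 row that gene's identifier. The 200 bases before the start of that gene (GRCr8, chr5:134735397-134735596, minus strand, from RefSeq) are shown, with CpG dinucleotides in capitals.

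Faah upstream: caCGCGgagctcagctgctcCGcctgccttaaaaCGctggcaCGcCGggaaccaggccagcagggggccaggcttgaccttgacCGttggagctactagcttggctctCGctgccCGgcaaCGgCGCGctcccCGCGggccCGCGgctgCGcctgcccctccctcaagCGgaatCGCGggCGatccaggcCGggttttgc

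This stretch holds 22 CpG dinucleotides and is 71% G and C, against a median of 5 CpG and 52% over 33469 RefSeq upstream windows of the same length. The GC box letters GGGCGG, or their reverse complement CCGCCC, were not found in it on either strand, and 28.6% of all windows hold them. Gpbp1l1 has 2 annotated starts in the RefSeq table, with 1 and 3 such matches in their upstream windows, the first of the 3 overlapping the next by 1 base. Both of those windows fall inside the gene's own RefSeq span, whereas the Faah window lies outside that of Faah. These matches describe the letters and do not show binding.

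The row the table names Faah was near 0 in WT lung apart from 1 library, though a Faah-like row described below held more reads there. The Faah row was at 2.03, 6.22, 27.7, 2.02 and 1.05 scaled counts in WT 1 to 5, scaled counts being the authors' reads per gene divided by a size factor of each library. In Cmg2-KO 1 to 5 it was at 52.1, 54.5, 81.5, 81.3 and 100.8. WT 3 was the highest WT library and still lay under every Cmg2-KO library, so the groups did not overlap. These values rest on 1 to 25 reads per WT library and 60 to 97 per Cmg2-KO library, so the WT level is known only coarsely. Group means were 7.82 ± 11.3 (WT) and 74.0 ± 20.5 (Cmg2-KO; SD, n = 5 each), a 9.47-fold ratio of means.

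Gpbp1l1 stood a little higher in every Cmg2-KO library. It was at 852, 749.9, 818, 801 and 708 scaled counts in WT 1 to 5, and at 1061, 998, 1033, 964 and 989.7 in Cmg2-KO 1 to 5. The highest WT library lay 112 scaled counts under the lowest Cmg2-KO library, and the highest library of a genotype exceeded its lowest by 1.20-fold in WT and 1.10-fold in Cmg2-KO. Means were 786 ± 57.1 and 1009 ± 38.0 (SD, n = 5 each), a 1.28-fold ratio, with 673 to 1221 reads per library. In GRCr8 the gene Tmem69 overlaps Gpbp1l1, and no source used here says that reads were counted by strand, so its count may hold reads of that gene.

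LOC108348080 showed the widest spread among Cmg2-KO libraries. It was at 5.08, 20.7, 4.44, 9.10 and 7.36 scaled counts in WT 1 to 5. In Cmg2-KO 1 to 5 it was at 332, 118, 133, 389 and 105, so that libraries 1 and 4 stood well above the other 3 and every Cmg2-KO library stood above every WT library. WT 2 was the highest WT library. Means were 9.35 ± 6.64 and 215 ± 135 (SD, n = 5 each), a 23.0-fold ratio. They rest on 4 to 20 reads per WT library and 101 to 412 per Cmg2-KO library, so this WT level too is known only coarsely. Ebna1bp2, which encodes EBP2 itself, was not in the table, so reads shared between it and this model cannot be judged here.

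**Figure D1:**
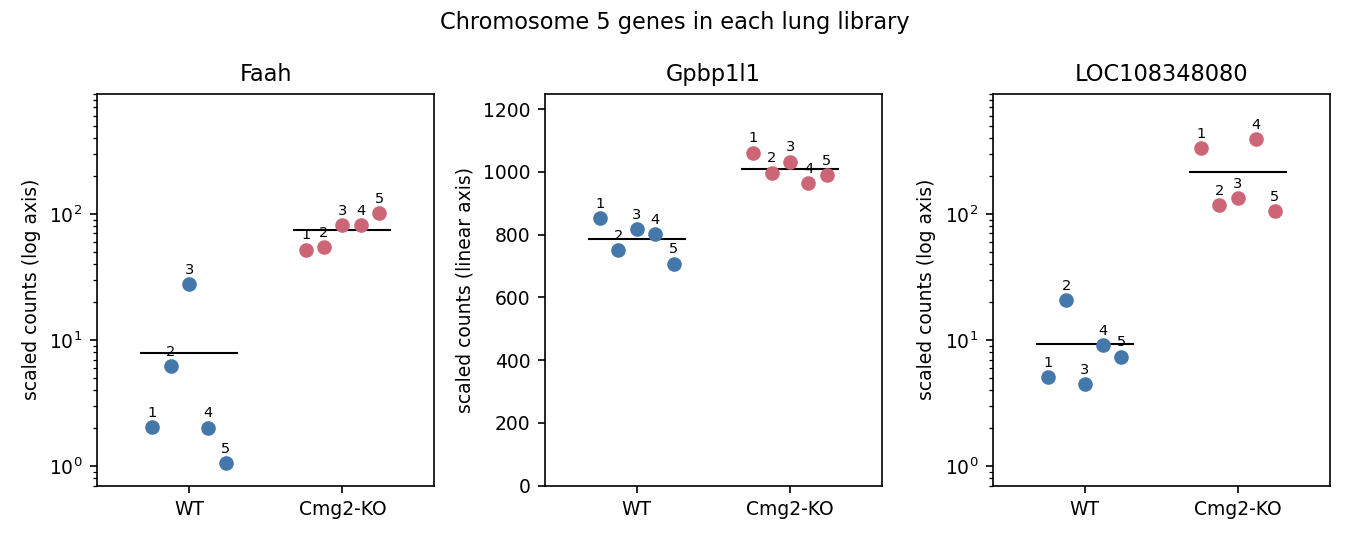
Scaled counts of Faah and LOC108348080 (log axes) and of Gpbp1l1 (linear axis from 0) in each of 5 WT and 5 Cmg2-KO lung libraries, with points numbered by replicate and horizontal lines at the group means. All 5 Cmg2-KO libraries lie above all 5 WT libraries in each panel, WT 3 stands above the other WT libraries for Faah, and Cmg2-KO 1 and 4 stand above the other Cmg2-KO libraries for LOC108348080.

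In all 3 genes every one of the 5 Cmg2-KO libraries lay above every WT library, where 9.25% of the 1319 genes of the table were. The authors' deposited table called all 3 at an adjusted p under 0.05 and ranked them 1 (LOC108348080), 11 (Gpbp1l1) and 13 (Faah) by p-value, where 0.206% of the 19894 genes adjusted over were called and higher. Since this contrast chose the genes, these counts describe the choice and are no test of it. After log2(scaled count + 1) transformation, limma differences of Cmg2-KO over WT were 3.80 ± 0.64 for Faah, 0.36 ± 0.06 for Gpbp1l1 and 4.36 ± 0.48 for LOC108348080 (SE). Limma called LOC108348080 alone of the 3 (adjusted p = 0.0175), and Faah and Gpbp1l1 missed the threshold (limma adjusted p = 0.183 for each), where 0.229% of the 1308 genes tested were called. The value for Faah moved with the scale, from 4.0 with a pseudocount of 0.5 to 2.92 with a pseudocount of 5, since a larger pseudocount shrinks the change of a low gene. For Faah, edgeR and DESeq2 on whole reads of 9 libraries gave 3.0 and 3.01, and in the authors' deposited table it was 3.26. Per kilobase of gene length, WT levels were 4.49 scaled counts for Faah, 7.20 for LOC108348080 and 316 for Gpbp1l1. The same order held in Cmg2-KO, at 42.6, 166 and 406 per kilobase. In scaled counts per library, Faah and LOC108348080 overlapped in WT. Gpbp1l1 lay above both in every library, though in Cmg2-KO 4 it was at 964 against 389 for LOC108348080.

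The Faah-like row gave the reverse picture. LOC100911581 (ENSRNOG00000045949, 134852875 to 134871775, minus strand), 0.504 Mb from the Faah row, was at 8.13, 23.9, 47.7, 78.9 and 7.36 scaled counts in WT 1 to 5. In Cmg2-KO 1 to 5 it was at 6.08, 7.03, 9.40, 4.73 and 27.0. Cmg2-KO 5 and the lower WT libraries overlapped, and the limma difference was -1.26 ± 0.69 (SE; adjusted p = 1). Of the scaled counts in both rows together, the Faah row held 20.0%, 20.7%, 36.8%, 2.50% and 12.5% in WT 1 to 5. It held 89.6%, 88.6%, 89.7%, 94.5% and 78.9% in Cmg2-KO 1 to 5. Most scaled counts of both rows together thus lay in the LOC100911581 row in every WT library and in the Faah row in every Cmg2-KO library. These shares take no account of gene length, 1740 bases for the Faah row and 3574 for LOC100911581. Per kilobase, means were 4.49 (Faah row) and 9.29 (LOC100911581) in WT, and 42.6 and 3.04 in Cmg2-KO. In WT 3 alone of the WT libraries the Faah row was the higher per kilobase. LOC100911581 had 7 to 78 reads per WT library and 5 to 26 per Cmg2-KO library, so shares are coarse.

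The sum of both rows, which was not planned beforehand, differed far less between genotypes than the Faah row did. It was at 10.2, 30.1, 75.5, 80.9 and 8.41 scaled counts in WT 1 to 5 and at 58.2, 61.5, 90.9, 86.0 and 128 in Cmg2-KO 1 to 5. WT 3 and WT 4 lay inside the Cmg2-KO range, and 3 Cmg2-KO libraries lay above all WT libraries. The means were 41.0 ± 35.0 and 84.9 ± 28.0 (SD, n = 5 each), a 2.07-fold ratio in place of 9.47-fold. The log2 difference of the sum was 1.51 ± 0.69 (SE), against 3.80 ± 0.64 for the Faah row. Whether reads of near-identical sequence were shared between the rows was not tested, so the level of each row alone is uncertain.

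The next gene of the table, LOC103690007, described as the rRNA methyltransferase NSUN4, starts 14.7 kb beyond LOC100911581. It was at 41.6, 6.22, 2.22, 0 and 40.0 scaled counts in WT 1 to 5 and at 5.21, 1.76, 3.13, 0 and 1.04 in Cmg2-KO 1 to 5. WT 1 and WT 5, the pair high for it, were the WT pair lowest for LOC100911581, and WT 4, where it was listed at 0, was the highest for LOC100911581. Cmg2-KO 4, also at 0 for it, was instead the lowest library for LOC100911581 (4.73). Deviations of the 2 genes from their genotype means had the same sign in 0 WT and 2 Cmg2-KO libraries. Across all 10 libraries the deviations of these neighbours from their genotype means had r = -0.78 (exact permutation within genotypes, p = 0.0341, adjusted p = 0.826 over 63 pairs) and Spearman's rho = -0.71 (exact permutation p = 0.0678, adjusted p = 0.851). Without WT 4 and Cmg2-KO 5, the libraries farthest from the median of LOC100911581, r was -0.71 (exact permutation p = 0.186). In GRCr8 the gene beside Faah is Nsun4.

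**Figure D2:**
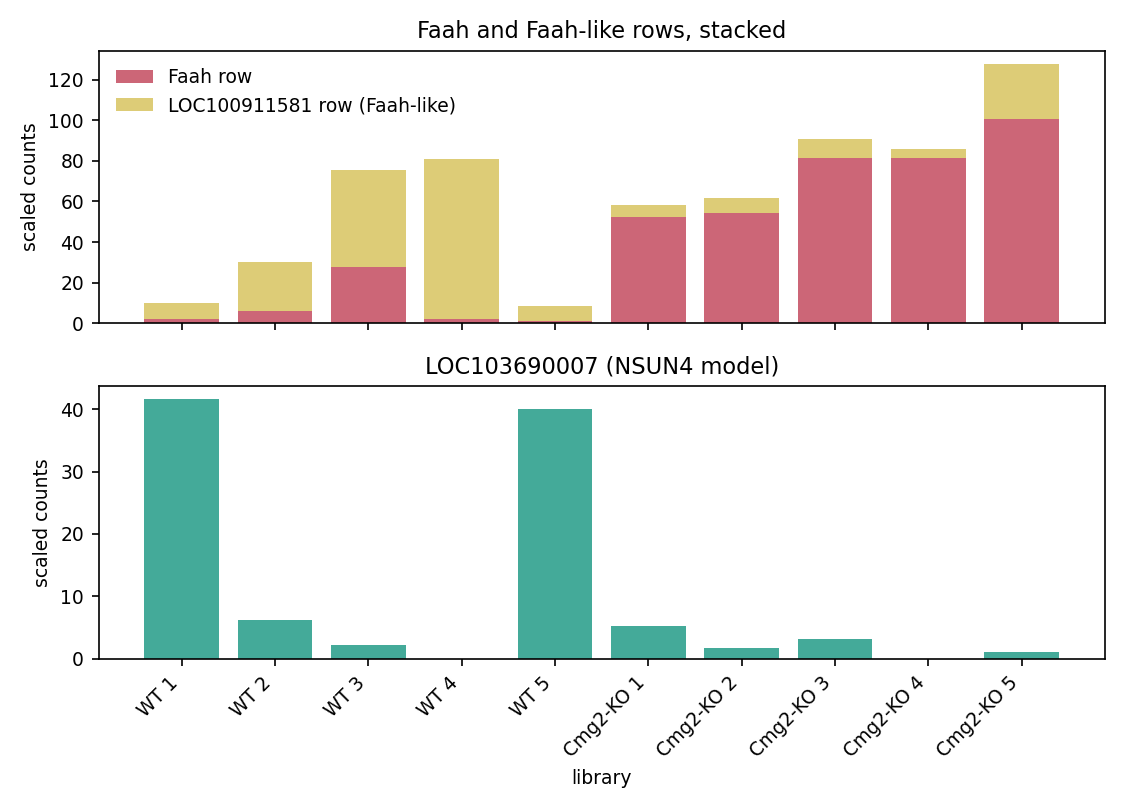
Scaled counts in each of the 10 libraries, with the Faah row and the Faah-like LOC100911581 row stacked (upper panel) and LOC103690007 alone (lower panel). The Faah row holds at most 36.8% of the stacked total in WT and at least 78.9% in Cmg2-KO, and LOC103690007 is high in WT 1 and WT 5, where the stacked total is lowest.

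Gpbp1l1 also has a relative in the table, LOC498424 on chromosome X (76997285 to 76998420), which the table calls a processed pseudogene and RefSeq names Gpbp1l1-ps1. WT libraries had 3.11 to 8.41 scaled counts of it and Cmg2-KO libraries 0 to 2.84, without overlap between the groups (16.3% of the genes of the table had none in either direction). The limma difference was -1.48 ± 0.43 (SE), with an adjusted p of 0.698. Gpbp1l1 held at least 98.8% of the sum of both in every library, and that sum differed by 0.35 on the log2 scale, close to the 0.36 of Gpbp1l1 alone. LOC498424 was added after its values were seen.

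Inside the genotypes the 3 genes did not vary together detectably. For Faah and Gpbp1l1, the deviations of the 10 libraries from their genotype means on the log2 scale had r = 0.21 (exact permutation of libraries within genotypes, two-sided, p = 0.703, adjusted p = 0.703 over 3 pairs) and rho = 0.03 (exact permutation p = 0.952, adjusted p = 0.952). For Faah and LOC108348080, r was -0.15 (exact permutation p = 0.679, adjusted p = 0.703) and rho -0.31 (exact permutation p = 0.399, adjusted p = 0.642). For Gpbp1l1 and LOC108348080, r was -0.29 (exact permutation p = 0.432, adjusted p = 0.703) and rho -0.30 (exact permutation p = 0.428, adjusted p = 0.642). At this number of libraries an absolute r of at least 0.747, 0.604 and 0.638 was needed for an unadjusted p of 0.05 in these pairs, so a moderate relation would not have been seen. Centring on genotype means also removes what differs between genotypes alone, so a stretch of chromosome uniform inside each genotype was not tested.

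The libraries that stood out differed from gene to gene. WT 3 deviated by 2.46 (log2) for Faah but by 0.06 for Gpbp1l1 and -0.73 for LOC108348080. WT 2 deviated by 1.26 for LOC108348080 and by 0.47 for Faah. Cmg2-KO 1 and 4, high for LOC108348080 by 0.85 and 1.08, deviated by -0.45 and 0.18 for Faah and by 0.07 and -0.07 for Gpbp1l1. Cmg2-KO 5 was the highest for Faah, at 0.49, and the lowest of its genotype for LOC108348080, at -0.81. Faah's relations rested on few libraries. Without WT 3 and WT 5, the farthest from its median, r with Gpbp1l1 was -0.75 (exact permutation p = 0.0556) and with LOC108348080 0.20 (exact permutation p = 0.693). Leaving out WT 1 and WT 5, r of Gpbp1l1 and LOC108348080 was -0.35 (exact permutation p = 0.408). For these 3 values the deviations kept the genotype means of all 10 libraries, so an offset between genotypes could remain in r.

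**Figure D3:**
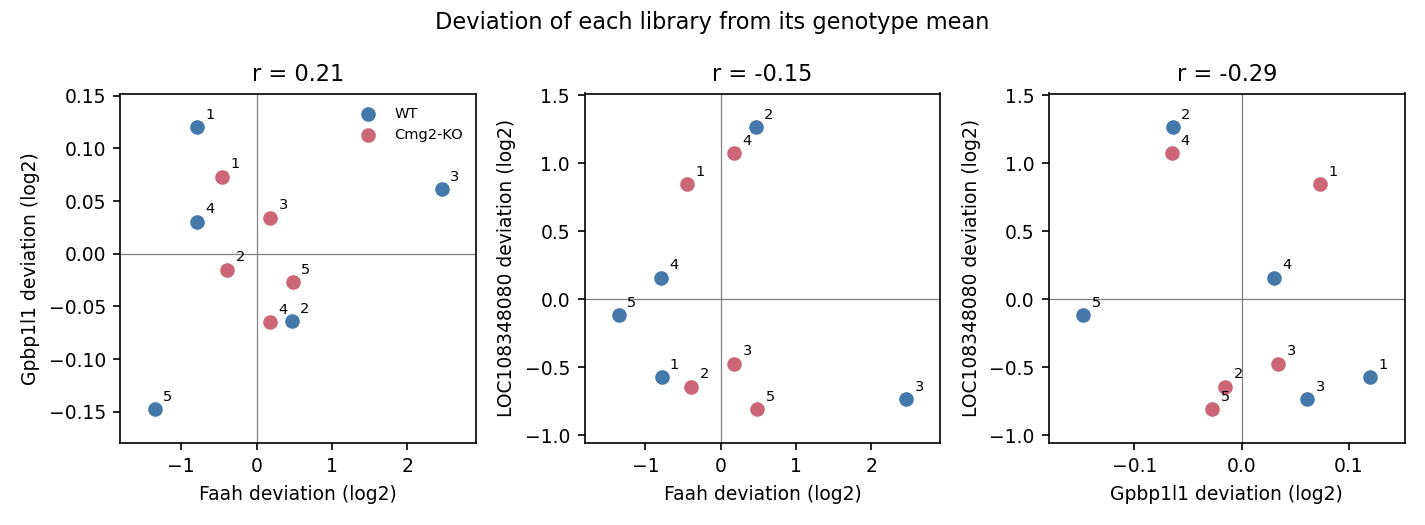
Deviation of each of the 10 libraries from its genotype mean on the log2(scaled count + 1) scale, for each pair of the 3 genes, with points coloured by genotype and numbered by replicate. No pair shows a line of points: r is 0.21, -0.15 and -0.29, and WT 3 (2.46) and WT 5 (-1.35) are the ends of the Faah axis.

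The other members were not among the genes nearest to each member, which is likely beforehand for any few of so many genes. Over all genes tested, the median absolute r inside the genotypes was 0.24 with Faah, 0.32 with Gpbp1l1 and 0.24 with LOC108348080. Absolute r between members (0.21, 0.15 and 0.29) lay under these medians, except that 0.29 for Gpbp1l1 lay above that of LOC108348080. Of the 1307 other genes tested, 46 had an absolute r of at least 0.7 with Faah inside the genotypes, and Gpbp1l1 and LOC108348080 ranked 742 and 864. For Gpbp1l1, Faah ranked 884 and LOC108348080 712. For LOC108348080, Faah ranked 866 and Gpbp1l1 553. Among the named genes nearest to Faah were Gpatch2 (r = 0.92) and Znrd1as1 (r = -0.88), both over 10 libraries. Among those nearest to Gpbp1l1 were the G-protein signalling regulator Rgs16 (r = -0.90) and the cysteine dioxygenase gene Cdo1 (r = -0.89). Those nearest to LOC108348080 were the alkaline phosphatase gene Alpl (r = 0.91), the muscle ubiquitin ligase gene Fbxo32 (r = 0.88) and Cpne7 (r = -0.88). Of the genes named here for likeness, Alpl was the only one on chromosome 5. These are the extremes of many correlations and are given as a description.

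Most of the rest of the window was lower in Cmg2-KO. The window held 12 genes of the table, and beside the 3 members 1 was higher and 8 were lower, against 631 higher and 677 lower of all genes tested. Only the 3 members were called (adjusted p under 0.05) by the authors' deposited table. Of the other 9, 7 had an unadjusted limma p under 0.05, as had 1035 of the genes tested, in a table that holds only genes with a p-value under 0.05. Pik3r3, a regulatory subunit gene of phosphoinositide 3-kinase, lies between Faah and Gpbp1l1 and averaged 744 ± 78.5 (WT) and 866 ± 93.4 (Cmg2-KO). Tspan1, a tetraspanin gene beside it, was at 932 ± 206 and 669 ± 194. Mutyh, which encodes a DNA glycosylase and is the next gene of the table beyond Gpbp1l1, was at 175 ± 14.9 and 132 ± 26.9 (SD, n = 5 for each of these means). All 3 missed the adjusted threshold in limma, with adjusted p-values of 0.903, 0.863 and 0.781.

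Toward LOC108348080 the listed genes were all lower. Tie1, an endothelial receptor kinase gene, averaged 6477 ± 639 (WT) and 5462 ± 401 (Cmg2-KO) scaled counts (SD, n = 5 each), with 2 Cmg2-KO libraries below all WT libraries (limma adjusted p = 0.761). RGD1305347, Tmem125 and an unnamed model 0.213 kb beyond Tmem125 had limma differences of -0.22 ± 0.10, -0.47 ± 0.16 and -0.45 ± 0.17 (SE), with adjusted p-values of 0.925, 0.781 and 0.810. LOC108348080 starts 295 kb beyond these and differed by 4.36 in the other direction. Just outside the window, Pdzk1ip1 on the Faah side had a limma difference of 0.45 ± 0.22 (SE; adjusted p = 1). Tmem269 on the other side had one of 1.64 ± 0.43 (SE; limma adjusted p = 0.661), from 0 to 1 reads per WT library and 2 to 7 per Cmg2-KO library.

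**Figure D4:**
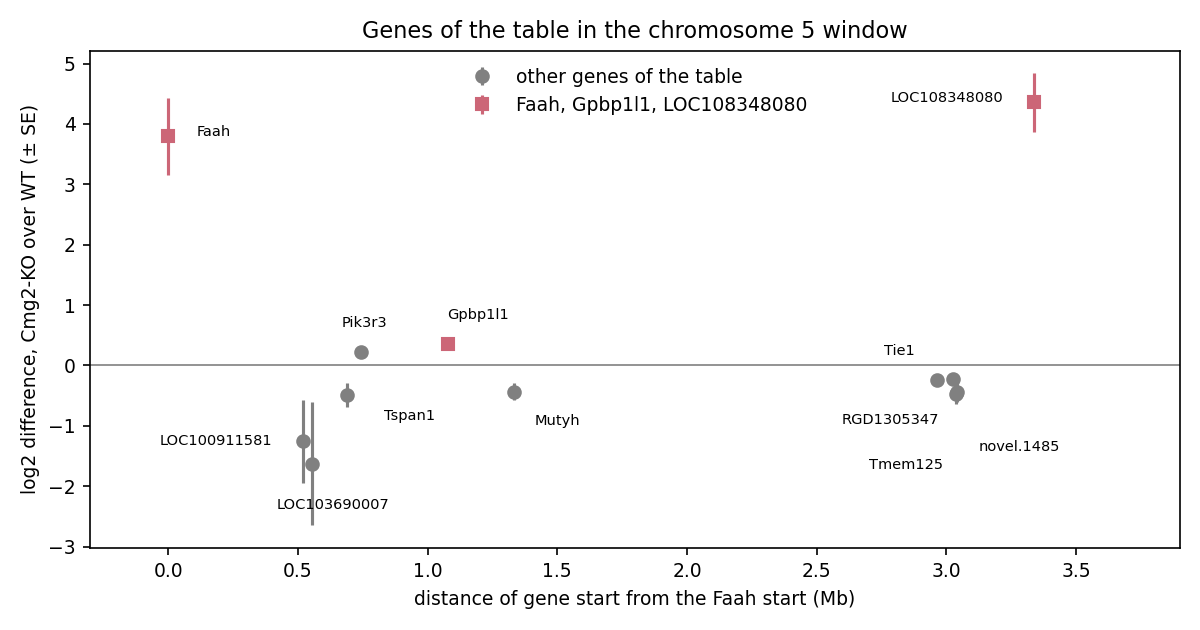
Limma log2 difference of Cmg2-KO over WT (± SE) for the 12 genes of the table in the window, against the distance of each gene's start from that of Faah in Mb. The 3 members (squares) lie above 0, Pik3r3 is the other gene above 0, and the 8 genes below 0 lie between the members.

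No pair of window genes varied together past the adjusted threshold. Of the 63 pairs of window genes other than the member pairs, 2 had an exact permutation p of 0.05 or less and 0 passed after adjustment (lowest adjusted p = 0.826), with r from -0.78 to 0.64 and a median of 0.05. These pairs were added after the member values were seen. The second of the 2 joined Gpbp1l1 and Tmem125 (r = 0.59, exact permutation p = 0.0393, adjusted p = 0.826; rho = 0.55, exact permutation p = 0.105, adjusted p = 0.851; r = 0.43 without WT 1 and WT 5).

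Few relatives of the members in function were in the table. Of 25 genes of the endocannabinoid and N-acylethanolamine system, 3 were listed, Faah among them by choice, where 6.63% of all genes were listed. Besides Faah these were Ptgs2, the cyclooxygenase that can oxidise anandamide, at means of 72.1 ± 24.2 (WT) and 38.8 ± 11.2 (Cmg2-KO), and Gde1, a phosphodiesterase of anandamide synthesis, at 1702 ± 202 and 1415 ± 106 (SD, n = 5). Limma passed 0 of the 3 at an adjusted p of 0.05, and all 3 had an unadjusted p under 0.05. The authors' deposited table called 1 of them, Faah, higher. Cannabinoid receptor genes and Napepld were not among the genes analysed here. Of 38 genes for rRNA processing and ribosome assembly, 1 was listed (Ftsj3, 711 ± 54.7 and 789 ± 27.3), and neither limma nor the authors' deposited table called it. Gpbp1 averaged 1746 ± 41.4 (WT) and 1869 ± 67.7 (Cmg2-KO), with a limma difference of 0.10 ± 0.04 (SE; adjusted p = 0.958). The median limma difference was -0.26 for the 3 listed endocannabinoid genes, Faah included, and -0.15 for all 1308 genes tested.

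Summed levels of cell type markers and of clock genes overlapped between the genotypes. Neither limma nor the authors' deposited table called any of those listed. The sums cover only the markers and clock genes in the table, each there for an unadjusted p-value under 0.05. The summed scaled counts of 10 listed smooth muscle markers (of 17) were 30990 to 50708 in WT and 25682 to 38091 in Cmg2-KO. Those of 5 mesothelial markers (of 10) were 2369 to 4170 and 2883 to 5390. Those of 4 secretory airway markers (of 10) were 144340 to 196851 and 84396 to 176966, those of 3 B and plasma cell markers (of 12) 5306 to 8782 and 7419 to 11126, and those of 5 clock genes (of 17) 2007 to 6274 and 1495 to 2473. No listed marker was at 0 in any library, and Scgb1a1 and Sftpb, which mark lung epithelium, were the 2 listed of 12 lung markers. By limma difference, all 10 smooth muscle, 4 secretory airway and 2 lung markers and 5 clock genes listed were lower in Cmg2-KO. All 5 mesothelial and 3 B and plasma cell markers listed were higher, against 631 higher and 677 lower of all genes tested. The part of these markers and clock genes in the member levels was not tested. In whole lung, fewer cells of a type and less RNA per cell cannot be told apart. Scaled counts of the 1319 genes summed to 1386578 to 1531531 per library, and full library depth is unknown.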

How the data were processed

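Lung RNA of 5 WT and 5 Cmg2-KO libraries was made into libraries with the NEBNext Ultra kit, per the labels' protocols, and HISAT2 2.0.5 and featureCounts 1.5.0-p3 are named in the submitters' processing notes. The genome build is not given in the sources used here. The deposited signal is the authors' reads per gene over a size factor that each library has, found from the values, 100% of which were whole multiples of 1 step per library within 0.02 reads. The authors' log2 fold changes, fold ratios and p-values were deposited beside it for 1319 genes. Their adjustment fitted 19894 genes.

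Differences were fitted with limma 3.58.1 (trend, robust) (R 4.3.3) to log2(scaled count + 1) of 1308 genes above 0.5 in at least 5 libraries, with Benjamini-Hochberg adjustment over 19894 genes. Covariation used deviations from genotype means and all 14400 permutations of libraries within genotypes. Where the libraries farthest from a gene's median were left out, deviations were not centred again on the libraries left. Count tests (edgeR 4.0.16, DESeq2 1.42.0) used whole reads of 9 libraries, since the step of WT 4 is too close to 1. Alternatives covered pseudocount, scaling, filter, test, replicate block and leaving out libraries. Both tests were checked on simulated data. The members and lists were chosen with earlier results of these data known. Named genes were the members, the genes of the window, the 3 symbols with the largest absolute r to each member, and list members in the table. Some genes that this rule names are not reported here.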

Additional observations from a re-analysis of the deposited data

Results flagged for a closer look

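In each of the 12 window genes and LOC498424, a library was picked out where its scaled count lay apart from the other 4 of its genotype by a gap of over 0.71 times that group's range. This happened in 3 of 26 groups, and chance alone, at 1 in 20, would give about 1.3. On the log2 scale it happened in 0. Faah in WT 3 was at 27.7 scaled counts against 1.05 to 6.22 in the other WT libraries. LOC100911581 in Cmg2-KO 5 was at 27.0 against 4.73 to 9.40. LOC108348080 in WT 2 was at 20.7 against 4.44 to 9.10.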

How the results depend on the processing

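All 3 log2 differences kept their direction under every alternative run, over 3.46 to 4.41 (Faah), 0.33 to 0.39 (Gpbp1l1) and 4.09 to 4.67 (LOC108348080) when single libraries were left out. Summing Faah with LOC100911581 gave 1.51, and Gpbp1l1 in unscaled whole reads of 9 libraries 0.52. No within-genotype r passed under the alternatives with a p-value (lowest adjusted p = 0.565, exact permutation; none was computed with the replicate block), and signs were not stable. For Faah and Gpbp1l1, r was -0.14 in unscaled reads, -0.13 on the linear scale and -0.20 to 0.46 without single libraries, below 0 without WT 3 (-0.09) and WT 5 (-0.20). For Faah and LOC108348080, r was -0.32 to 0.32 without single libraries, above 0 without WT 3 (0.32). With the sum of the Faah and LOC100911581 rows in place of Faah, r was 0.21 with Gpbp1l1 and -0.05 with LOC108348080 (exact permutation, adjusted p = 0.922 for each). For Gpbp1l1 and LOC108348080, r was 0.18 in unscaled reads and -0.50 to -0.15 without single libraries. The cause of these changes was not tested.

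Limma called 3 of 1308 genes. The count was 257 adjusted over the tested genes alone, 1 with edgeR, 51 with DESeq2, 72 in the authors' deposited table and 1 to 6 without single libraries (1 without WT 4 or Cmg2-KO 1, 5 without WT 3, 6 without Cmg2-KO 3 or Cmg2-KO 4). With the replicate block in limma it was 0, with 899 genes at an unadjusted p under 0.05, and r was 0.13 for Faah and LOC108348080 and -0.75 for Gpbp1l1 and LOC108348080, with no p-value computed. In the labels, same-numbered libraries share only a number. Their deviations correlated by -0.02 to 0.09, 3 of 5 WT libraries correlated best with their own number, and pairing was not tested. Read numbers of 1 to 25 limit Faah, and of 4 to 20 LOC108348080, in WT.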
